A study of Arabidopsis thaliana with 4 samples.

Results

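The iron uptake genes of the Arabidopsis root and their regulators were followed through 4 root libraries. They were taken as 9 loci chosen by name for their roles in iron uptake, with earlier results of these data known. They are FRO2, IRT1, FIT, BHLH38, BHLH39, BHLH100, BHLH101, NAS4 and BTS, 9 of the 21531 loci with at least 1 read in at least 1 library, and all 9 had reads in all 4. Seedlings were either the Columbia wild type (Col) or luh-4, a Columbia-background mutant of the co-repressor gene LEUNIG_HOMOLOG (LUH). They were grown for 6 d at pH 5.5, and about 500 per treatment were then placed at pH 4.2 with 0 or 25 µM AlCl3. Each of the 4 combinations of genotype and treatment, called Col control and Col Al in the wild type and luh-4 control and luh-4 Al in the mutant, is 1 library of polyadenylated RNA from pooled roots. Where 4 values follow each other they stand in that order. The treatment text has roots collected after 4 h, whereas the controls are labelled 0 h, so time in solution at pH 4.2 and Al cannot be told apart if the controls were taken at the start. The luh-4 libraries came from 1 mutant line, and no other allele or complemented line is analysed here.

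Arabidopsis takes up iron by reduction. Protons are pumped into the rhizosphere, ferric chelates are reduced at the root surface by the reductase FRO2, and ferrous iron is carried into epidermal cells by IRT1. The transcription factor FIT, paired with 1 of the subgroup Ib factors BHLH38, BHLH39, BHLH100 and BHLH101, activates FRO2 and IRT1 when iron is short, and the Ib genes are themselves activated by subgroup IVc factors such as ILR3. BTS is an iron-binding E3 ubiquitin ligase that marks IVc factors for degradation, and NAS4 is a nicotianamine synthase, an enzyme that makes the chelator carrying iron within the plant.

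Libraries held 13.5 M to 13.8 M reads assigned to transcripts. The wild-type control held 75 reads of LUH (AT2G32700) and the wild type with Al 63, whereas neither mutant library held any, in keeping with the genotype labels. The LUH reads covered at most 19.0% of the coding length. Among tissue markers, the 7 root hair genes summed to 548 RPKM in Col control, 239 in Col Al, 692 in luh-4 control and 527 in luh-4 Al. RPKM is the read count scaled to coding length in kilobases and to the library total. The 3 endodermis genes, SCR, CASP1 and MYB36, all had reads and summed to 434 to 513 RPKM. The 7 green shoot genes summed to 61.7, 44.8, 241 and 57.2 RPKM in the same order, so luh-4 control stood apart, and no marker on these lists was at 0 in any library. There were no replicates. Parentheses after a level or a log2 ratio hold a 95% interval for counting error only, and each ratio compares libraries. A gene is said to rise or fall, or to be higher or lower, where its RPKM plus 0.1 differed by at least 2-fold with a log2 interval that excludes 0 (the size rule), or where it was called at an adjusted p of at most 0.05 by a fit of genotype plus treatment to the reads of all 4 libraries (edgeR quasi-likelihood test, Benjamini-Hochberg adjustment over 18143 loci). That fit has 1 residual degree of freedom. What it takes as spread is how far the libraries depart from additivity, not variation between plants.

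The uptake machinery itself was abundant. FRO2 (AT1G01580, chromosome 1), the ferric chelate reductase, stood at 469 RPKM in Col control, 161 in Col Al, 347 in luh-4 control and 124 in luh-4 Al, from 13996, 4851, 10368 and 3621 reads. It was high in both controls and low in both Al libraries, and within each treatment the luh-4 value was the smaller. In Col control it ranked 369th of the 20234 loci listed by RPKM, and in Col Al 1174th. IRT1 (AT4G19690, chromosome 4), the ferrous iron importer, had 304 RPKM in Col control, 181 in Col Al, 237 in luh-4 control and 148 in luh-4 Al. The 4 libraries fall in the same order for IRT1 as for the reductase, with Col Al and luh-4 Al closer to the controls. FIT (AT2G28160, chromosome 2), the regulator of both, had 162, 94.7, 107 and 79.2 RPKM. Col control stood well above the other libraries for FIT.

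The regulators beside FIT were less abundant. BHLH38 (AT3G56970, chromosome 3) had 39.6 RPKM in Col control, 52.9 in Col Al, 38.7 in luh-4 control and 38.1 in luh-4 Al. BHLH39 (AT3G56980), the next gene on chromosome 3 on the same strand, had 39.7, 57.3, 39.7 and 43.9 RPKM. For both, Col Al was the high library and the other libraries were alike. BHLH100 (AT2G41240, chromosome 2) had 3.71, 4.67, 3.90 and 4.08 RPKM, from 37 to 47 reads, with intervals that overlap between all libraries. Reads of BHLH100 covered 50.9% to 54.6% of its main transcript. BHLH101 (AT5G04150, chromosome 5) was close to the limit of detection, with 4 reads in Col control, 10 in Col Al, 20 in luh-4 control and 16 in luh-4 Al. Its levels were 0.404 (0.11 to 1.03), 1.0 (0.48 to 1.84), 2.01 (1.23 to 3.11) and 1.65 (0.94 to 2.67) RPKM, and only the intervals of Col control and luh-4 control are apart. BTS (AT3G18290, chromosome 3), the ubiquitin ligase, had 57.7, 59.6, 56.5 and 56.2 RPKM, the narrowest range of the 9 genes in proportion to its level. NAS4 (AT1G56430, chromosome 1), the nicotianamine synthase, had 46.2, 49.3, 40.2 and 46.7 RPKM.

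**Figure D1:**
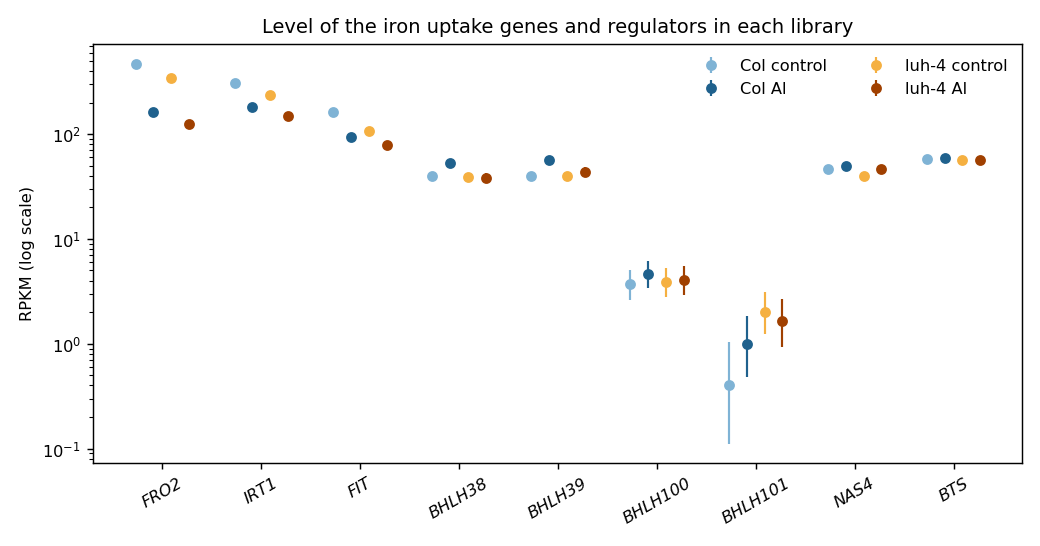
Each point is the RPKM of a gene in 1 library, on a log axis, with a 95% Poisson interval for counting error (hidden by the point where it is narrow). FRO2 spans 124 to 469 RPKM and IRT1 148 to 304, with both controls above both Al libraries, while BTS stays between 56.2 and 59.6.

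Ranked by RPKM in Col control, the order was FRO2, IRT1, FIT, BTS, NAS4, BHLH39, BHLH38, BHLH100 and BHLH101. Of neighbours in that order, BHLH39 and BHLH38 did not differ beyond counting error, with a ratio of 1.0 (0.873 to 1.15), while NAS4 was 1.17 times BHLH39 (1.03 to 1.32). The order in luh-4 control was the same, with NAS4 1.01 times BHLH39 (0.89 to 1.15) and BHLH39 1.03 times BHLH38 (0.894 to 1.18). In both Al libraries IRT1 was first and FRO2 second. In Col Al NAS4 stood below BHLH39, at 0.86 times its level (0.77 to 0.962), and the intervals of BTS (57.6 to 61.8 RPKM) and BHLH39 (52.8 to 62.0) overlapped, as did those of BHLH38 (48.6 to 57.5) and NAS4 (45.6 to 53.2). In luh-4 Al NAS4 was 1.06 times BHLH39 (0.94 to 1.2).

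The promoters of 5 of these genes are shown because these genes shared a pattern over the libraries or stood out from it: FRO2 and IRT1, both high in the controls, the neighbours BHLH38 and BHLH39, both highest in Col Al, and BTS, level throughout. Each window runs from 250 bases before to 50 bases after the annotated gene start in the RefSeq TAIR10.1 genome, 5′ to 3′ on the gene's strand. They are chr1:208745-209044 on the plus strand for FRO2, chr4:10707094-10707393 on the plus strand for IRT1, chr3:21085196-21085495 on the minus strand for BHLH38, chr3:21087661-21087960 on the minus strand for BHLH39 and chr3:6273716-6274015 on the plus strand for BTS. Capitals mark the E-box CANNTG, the core that basic helix-loop-helix factors bind, of which the G-box CACGTG is 1 form, so that every G-box is counted among the E-boxes. CANNTG reads the same on both strands.
FRO2: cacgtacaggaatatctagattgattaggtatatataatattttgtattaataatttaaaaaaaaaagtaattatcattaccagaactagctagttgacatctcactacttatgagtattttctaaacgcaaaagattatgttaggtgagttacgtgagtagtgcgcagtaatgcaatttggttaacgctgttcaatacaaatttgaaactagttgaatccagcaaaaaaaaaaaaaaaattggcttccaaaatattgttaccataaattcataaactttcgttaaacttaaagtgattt
IRT1: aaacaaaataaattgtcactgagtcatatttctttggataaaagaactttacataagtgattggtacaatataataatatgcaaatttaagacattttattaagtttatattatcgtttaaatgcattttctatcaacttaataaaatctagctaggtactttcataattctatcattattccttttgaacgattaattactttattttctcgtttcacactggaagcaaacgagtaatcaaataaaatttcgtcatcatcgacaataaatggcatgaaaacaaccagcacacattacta
BHLH38: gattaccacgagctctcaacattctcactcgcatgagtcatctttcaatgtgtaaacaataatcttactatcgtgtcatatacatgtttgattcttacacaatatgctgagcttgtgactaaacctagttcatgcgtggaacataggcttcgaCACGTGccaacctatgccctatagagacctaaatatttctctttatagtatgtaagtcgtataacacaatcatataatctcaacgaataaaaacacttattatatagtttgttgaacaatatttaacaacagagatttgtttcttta
BHLH39: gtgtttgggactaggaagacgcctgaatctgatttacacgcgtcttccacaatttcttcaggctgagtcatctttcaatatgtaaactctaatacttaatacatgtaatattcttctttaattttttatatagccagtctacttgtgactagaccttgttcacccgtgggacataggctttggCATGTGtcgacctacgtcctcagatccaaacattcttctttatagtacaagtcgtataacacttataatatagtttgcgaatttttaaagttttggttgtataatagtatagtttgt
BTS: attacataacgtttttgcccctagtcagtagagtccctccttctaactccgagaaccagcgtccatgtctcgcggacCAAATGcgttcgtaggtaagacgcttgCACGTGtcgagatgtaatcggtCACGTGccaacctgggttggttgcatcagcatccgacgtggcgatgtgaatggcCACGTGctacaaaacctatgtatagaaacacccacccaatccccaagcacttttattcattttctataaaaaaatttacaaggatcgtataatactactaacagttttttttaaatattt
An E-box was found in 61.7% of 27437 such windows of nuclear protein-coding genes and a G-box in 7.68%. The FRO2 and IRT1 windows held neither. BHLH38 had 1 G-box, at position -97 from the gene start, and BHLH39 had 1 E-box that is not a G-box, at -67. BTS had 4 E-boxes, of which 3 are G-boxes at -146, -124 and -70, and 2.21% of windows had at least 4 E-boxes. Of the windows not shown, FIT and NAS4 had 1 E-box each, BHLH100 had 2 with 1 G-box, and BHLH101 had 0. These are matches of letters in a short window, and say nothing of binding or of sites further upstream.

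The first question was how the 9 genes responded to Al in wild-type roots. FRO2 fell 2.91-fold in Col, a log2 ratio of -1.54 (-1.59 to -1.49). It was the sole member of 9 past the size rule downward, where 2.91% of 17068 measured loci were, and 0 of 9 passed upward, where 2.6% of loci were. IRT1 had -0.75 (-0.82 to -0.68) and FIT -0.77 (-0.88 to -0.67), both with intervals well clear of 0 but short of 2-fold. BHLH38 had 0.42 (0.23 to 0.61) and BHLH39 0.53 (0.35 to 0.71), both above 0. BHLH100 had 0.32 (-0.32 to 0.99), NAS4 0.09 (-0.07 to 0.25) and BTS 0.05 (-0.03 to 0.12). BHLH101 had 1.13 (-0.48 to 3.44), a ratio of 10 to 4 reads, and it met the minimum of 1 RPKM through Col Al alone. The median of the 9 log2 ratios was 0.09, beside 0.02 for all measured loci. In bulk roots, fewer cells of a type and less RNA per cell cannot be told apart.

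The FRO2 loss was also ranked among all loci. In RPM, reads scaled to the library total as in RPKM but not to length, it lost 671 in Col, the 7th largest loss of any locus, and 486 in luh-4, the 10th largest. Among the 2094 loci with at least 100 RPKM in Col control or Col Al, its log2 ratio was 22nd from the lowest. IRT1 was 101st and FIT 96th of the same loci, and 2.63% of them passed the size rule downward.

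The second question was the same for luh-4 roots. FRO2 fell 2.80-fold, with a log2 ratio of -1.49 (-1.54 to -1.43), again as 1 of 9 past the size rule downward against 3.1% of 17117 measured loci, and again 0 of 9 passed upward, where 2.02% did. IRT1 had -0.68 (-0.76 to -0.60) and FIT -0.43 (-0.55 to -0.32). BHLH38 had -0.02 (-0.22 to 0.18), BHLH39 0.14 (-0.05 to 0.34) and BHLH100 0.07 (-0.61 to 0.74). The Ib genes were thus near 0 in luh-4 as far as their reads allow, with BHLH101 at -0.28 (-1.34 to 0.73). NAS4 had 0.21 (0.04 to 0.38) and BTS -0.01 (-0.08 to 0.07). The median of the 9 was -0.02, equal to that of all measured loci. Of the 7 green shoot markers 4 were higher in luh-4 control than in Col control by the size rule, where 1.55% of measured loci were. With the wild-type control as the reference for luh-4 Al instead, the 4 genes FRO2 (-1.92), IRT1 (-1.04), FIT (-1.03) and BHLH101 (1.79) passed. These ratios also hold the genotype difference.

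**Figure D2:**
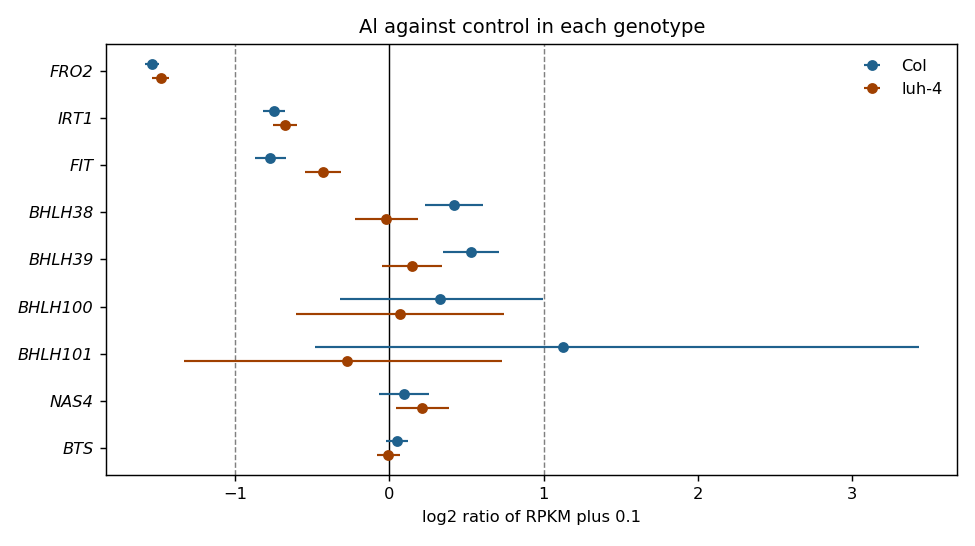
Log2 ratios of RPKM plus 0.1, Al against control, for the 9 genes in Col (blue) and luh-4 (brown), with 95% counting intervals and dashed lines at a 2-fold difference. FRO2 lies near -1.5 in both genotypes, IRT1 and FIT lie between -0.43 and -0.77, and BHLH38 and BHLH39 lie above 0 in Col.

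Taking the genotypes together, the additive fit called 3 of the 9 genes lower with Al and 0 higher, where 6.51% and 5.5% of 18143 loci were called. FRO2 had an effect of -1.52 on the log2 scale (edgeR adjusted p = 6.24e-09), IRT1 fell by 0.72 (edgeR adjusted p = 1.15e-05) and FIT fell by 0.61 (edgeR adjusted p = 0.000449), each lower with Al in both genotypes. BHLH39 had 0.34, with an edgeR adjusted p of 0.0683 and an unadjusted p of 0.00926. With every locus that had a read kept in the fit, its edgeR adjusted p was 0.0334 (5.47% of 21531 loci were called higher in that fit), and over the alternatives run it ranged from 0.0334 to 0.746, the latter by DESeq2. BHLH38 (0.20), BHLH100 (0.20), BHLH101 (0.23), NAS4 (0.15) and BTS (0.02) had edgeR adjusted p values of 0.344 to 0.927. DESeq2 in the same design called the same 3 genes, where it called 2.59% of loci lower, with adjusted p of 4.72e-39 for FRO2, 7.04e-07 for IRT1 and 0.00306 for FIT.

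FRO2, IRT1 and FIT are expressed in the root epidermis, and root hair genes moved in Col as well. Of the 7 root hair markers 4 fell in Col by the size rule and 0 in luh-4, with medians of -1.25 and -0.25, whereas the FRO2 ratio was -1.54 and -1.49. The list of non-hair epidermis markers held 2 genes, WER and GL2. WER had an Al ratio of -0.31 for Col, with an interval from -0.64 up to 0.02. Its luh-4 ratio was -0.13, with an interval from -0.43 up to 0.17. GL2, with 10, 4, 14 and 7 reads, was under the minimum of 1 RPKM. In the additive fit 5 of 7 root hair and 4 of 7 green shoot markers were called lower with Al, where 6.51% of all loci were. That fit called 0 of the 2 non-hair epidermis markers for Al. Green shoot markers had medians of -0.62 in Col and -1.25 in luh-4, with 1 and 4 of 7 falling, and the endodermis markers had 0.01 and -0.10, with 0 of 3 past the rule. The part of these cells in the iron gene ratios was not tested.

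FRO2 fell further than IRT1 and FIT, and the ratios between their levels shifted. FRO2 was 1.54 times IRT1 by RPKM in Col control (1.49 to 1.60) and 0.89 times in Col Al (0.848 to 0.934). In luh-4 the ratio was 1.46 (1.41 to 1.52) in the control and 0.834 (0.79 to 0.881) with Al. The intervals of the controls and the Al libraries lie on opposite sides of 1 in both genotypes. FRO2 over FIT was 2.90 in Col control against 1.70 with Al, and 3.24 in luh-4 control against 1.56 with Al. IRT1 over FIT was more even, at 1.88 (1.79 to 1.98), 1.91 (1.79 to 2.05), 2.22 (2.08 to 2.36) and 1.87 (1.73 to 2.02) in the 4 libraries. Against its Ib partner, FIT over BHLH39 was 4.08 (3.67 to 4.54) in Col control, 1.65 (1.5 to 1.82) in Col Al, 2.69 (2.42 to 3.01) in luh-4 control and 1.80 (1.61 to 2.02) in luh-4 Al. IRT1 reads covered 68.2% to 72.3% of the coding length of the more read of its 2 listed transcripts, against 100% for FRO2 and FIT, which limits comparisons of its level with theirs.

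**Figure D3:**
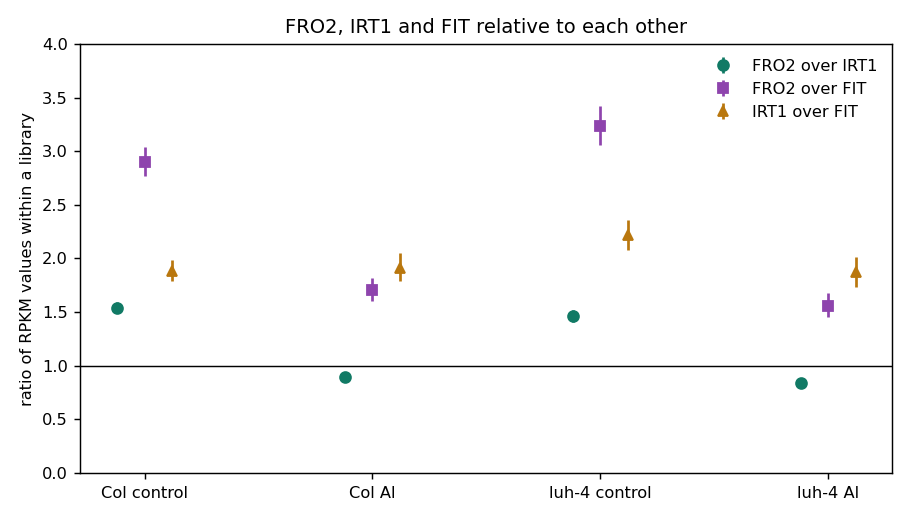
Ratios of RPKM between pairs of genes within each library, with 95% counting intervals. FRO2 over IRT1 lies above 1 in both controls and below 1 in both Al libraries, and FRO2 over FIT is 2.90 and 3.24 in the controls and 1.70 and 1.56 with Al.

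The third question was how the mutant differed from the wild type. Without Al, FRO2 had a log2 ratio of -0.44 (-0.47 to -0.40), IRT1 -0.36 (-0.42 to -0.29) and FIT -0.60 (-0.69 to -0.50). With Al they had -0.38 (-0.45 to -0.32), -0.29 (-0.37 to -0.21) and -0.26 (-0.38 to -0.14). All 3 genes were below the wild type in both treatments, by less than the size rule asks. BHLH38 and BHLH39 were level between the genotypes without Al, at -0.03 (-0.23 to 0.17) and 0.00 (-0.20 to 0.20), and had -0.47 (-0.66 to -0.28) and -0.38 (-0.56 to -0.21) with Al. BHLH101 was higher in luh-4 control, at 2.07 (0.74 to 4.33), on 20 against 4 reads, and had 0.66 (-0.51 to 2.02) with Al. It was the only member past the size rule without Al, where 1.55% of 17070 measured loci were higher and 0.855% lower, and it met the minimum of 1 RPKM through luh-4 alone. With Al 0 of 9 passed, where 2.17% of 17011 loci passed in either direction. NAS4 had -0.20 (-0.37 to -0.03) without Al and -0.08 (-0.24 to 0.08) with Al, and BTS -0.03 (-0.10 to 0.04) and -0.09 (-0.16 to -0.01).

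Over both treatments the additive fit called FRO2, IRT1 and FIT lower in luh-4, 3 of 9 where 0.75% of 18143 loci were called lower, and 0 of 9 higher, where 0.424% were. The effects were -0.41 for FRO2 (edgeR adjusted p = 0.0123), -0.33 for IRT1 (edgeR adjusted p = 0.0426) and -0.43 for FIT (edgeR adjusted p = 0.0405). These calls rest on the tool. DESeq2 in the same design gave adjusted p of 0.0706, 0.7 and 0.543 for the same genes and called 0 of 9, where it called 0.262% of 11811 loci, with unadjusted p of 0.000227, 0.00866 and 0.0056. Over the alternatives run, adjusted p ranged from 5.73e-05 to 0.0706 for FRO2, from 0.00485 to 0.7 for IRT1 and from 0.000855 to 0.543 for FIT (edgeR at the low end, DESeq2 at the high end). BHLH101 had an effect of 1.38 with an edgeR adjusted p of 0.358. Root hair markers went the other way, with 3 of 7 higher in luh-4 in the same edgeR fit and 0 lower, and green shoot markers had 3 of 7 higher. Their part in the genotype ratios was not tested.

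**Figure D4:**
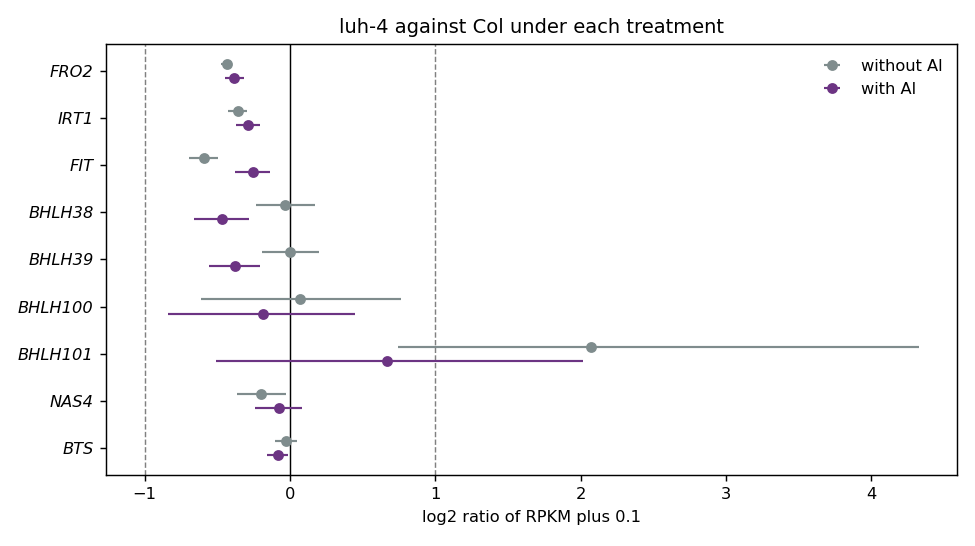
Log2 ratios of RPKM plus 0.1, luh-4 against Col, for the 9 genes without Al (grey) and with Al (purple), with 95% counting intervals and dashed lines at a 2-fold difference. FRO2, IRT1 and FIT lie between -0.60 and -0.26 under both treatments, and BHLH38 and BHLH39 lie near 0 without Al and at -0.47 and -0.38 with Al.

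The last question was whether the Al responses differed between the genotypes. For the difference, luh-4 minus Col, 0 of 9 genes passed the size rule, where 3.61% of 17435 loci did in either direction. FRO2 had a difference of 0.05 (-0.02 to 0.13) and IRT1 of 0.07 (-0.04 to 0.18), and the interval for FRO2 reached no further than 0.13. FIT had 0.34 (0.19 to 0.49), BHLH38 -0.44 (-0.71 to -0.17) and BHLH39 -0.39 (-0.65 to -0.12), each with a counting interval that excludes 0. For FIT the smaller ratio in luh-4 goes with a lower luh-4 control, and for BHLH38 and BHLH39 with a lower luh-4 Al. The Ib genes summed to 876 reads in Col control, 1229 in Col Al, 888 in luh-4 control and 906 in luh-4 Al. BHLH100 had -0.26 (-1.15 to 0.62), BHLH101 -1.40 (-3.34 to 0.35), NAS4 0.12 (-0.11 to 0.35) and BTS -0.06 (-0.16 to 0.05). The root hair markers had a median difference of 0.79, with 3 of 7 past the rule upward, and the green shoot markers -0.89, with 3 of 7 past it downward. Their part was not tested. With 1 library per group these differences were not tested against variation between plants.

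Of the rest of the iron pathway, 57 genes were listed by role, and 49 of them had reads. The other 8, among them PYE, IMA3 and the FRO2 neighbour FRO1, are absent from the counts of every library and are not analysed here. Whether they were expressed cannot be told from that absence. By the size rule 2 of 39 measured genes fell in Col and 5 of 40 in luh-4, where 2.91% and 3.1% of all measured loci fell, and 0 rose in either, where 2.6% and 2.02% rose. Their medians were -0.05 and -0.17, beside 0.02 and -0.02 for all measured loci. The additive fit called 8 of 43 lower and 5 higher with Al, where 6.51% and 5.5% of all loci tested were called.

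Of the upstream regulators the additive fit called 2 of 10 lower with Al, both MYB factors, and of the subgroup IVa partners of FIT 2 of 3. Among all loci tested 6.51% were called lower. MYB72, an iron-responsive MYB factor downstream of FIT, had 50, 13, 46 and 11 reads and fell in both genotypes, by log2 ratios of -1.86 (-2.96 to -1.05) for Col and -1.92 (-3.13 to -1.06) in luh-4. Its relative MYB10, named after its values were seen, had -0.92 (-1.28 to -0.58) and -0.88 (-1.25 to -0.53). In the additive fit both were called lower with Al (edgeR adjusted p = 0.00247 and 0.00187), whereas DESeq2 gave adjusted p of 0.101 for each. BHLH20, 1 of 4 subgroup IVa factors that bind FIT and promote its degradation, had -0.96 (-1.28 to -0.66) for Col and -1.2 (-1.54 to -0.89) in luh-4, where it fell, with an edgeR adjusted p of 0.000198. BHLH19, of the same subgroup, had 6, 1, 16 and 1 reads in the 4 libraries, and fell in luh-4 (-2.94, -9.36 to -1.28). It met the minimum of 1 RPKM through luh-4 control alone, the library where it was high, and was under the minimum in both Col libraries.

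The other 8 upstream regulators were not called in the additive fit. ILR3, a subgroup IVc factor, had 176, 160, 150 and 149 RPKM in the 4 libraries, and Al ratios of -0.14 (-0.24 to -0.04) and -0.02 (-0.12 to 0.09). Its partner BHLH104 had 128, 86, 66 and 99 reads, with Al ratios of -0.58 (-1.0 to -0.18) for Col and 0.61 (0.15 to 1.09) in luh-4. In the difference between responses it passed the size rule upward, at 1.19 (0.60 to 1.79). It was 1 of 40 measured genes on these lists to do so, where 1.35% of all 17435 measured loci did. BHLH104 reads covered 28.5% to 29.6% of its main transcript. The ubiquitin ligases related to BTS had Al ratios of -0.06 (-0.12 to 0.01) and -0.25 (-0.32 to -0.17) for BTSL1, and 0.16 (0.07 to 0.25) and 0.05 (-0.05 to 0.14) for BTSL2, in Col and luh-4. The iron-deficiency peptide genes had few reads. IMA1 had 28, 23, 34 and 33 reads and IMA2 20, 31, 13 and 19 in the 4 libraries, and with 88.9% identical coding sequences and an identical run of 55 bases they are uncertain as single genes.

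Of 6 relatives of the uptake genes tested, the additive fit called 0 lower and 1 higher with Al, where 6.51% and 5.5% of all loci were called. AHA2, the proton pump of the root surface, had Al ratios of -0.17 (-0.26 to -0.09) for Col and 0.04 (-0.05 to 0.13) in luh-4, but its reads covered at most 17% of its main transcript. IRT2, the neighbour of IRT1, had 58, 34, 78 and 60 reads in the 4 libraries, and the level of IRT1 was 75.2, 76.7, 43.8 and 34.8 times that of IRT2. Nicotianamine synthases went different ways. NAS1 had 395, 285, 346 and 248 RPKM and was called lower with Al (-0.48, edgeR adjusted p = 0.0003), while NAS2 had 120, 155, 80.4 and 96.2 RPKM and was called higher (0.31, edgeR adjusted p = 0.0147), a call DESeq2 did not make (adjusted p = 0.32). NAS2 was also lower in luh-4, with an effect of -0.63 (edgeR adjusted p = 0.00139), and NAS3 had 1 read in all. The ferritin gene FER1, for iron storage, had Al ratios of -0.12 (-0.27 to 0.02) and -0.19 (-0.33 to -0.05). VTL2, a member of the vacuolar iron transporter-like family, fell in luh-4 on 30 against 14 reads (-1.03, -2.10 to -0.11). It also passed downward in the difference between responses (-1.35, -2.57 to -0.17), as 1 of 40 measured genes on these lists, where 2.26% of all measured loci did.

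The remaining calls of the additive fit, named after their values were seen, were higher with Al for the zinc and iron transporter IRT3 (0.34), the vacuolar iron exporter NRAMP3 (0.60), the YSL2 transporter (0.45) and F6PH1, a feruloyl-CoA hydroxylase of coumarin synthesis (0.45). The ferritin gene FER3 (-0.39) and CYP82C4, which hydroxylates the coumarin fraxetin (-0.59), were called lower. Their edgeR adjusted p values lay between 0.000162 and 0.0229. S8H, the scopoletin 8-hydroxylase that makes fraxetin, had 370, 16, 155 and 3 reads, log2 ratios of -4.42 (-5.37 to -3.83) and -5.11 (-7.95 to -4.09). S8H, CYP82C4 and NAS2 were the 3 of 43 that the fit called lower in luh-4, where 0.75% of all loci tested were, with 0 called higher, where 0.424% were. DESeq2 also called 6 of the 13 Al effects and 2 of these 3 genotype effects. It did not call 6 other Al effects, with adjusted p of 0.101 to 0.505, and gave no adjusted p for BHLH19.

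**Figure D5:**
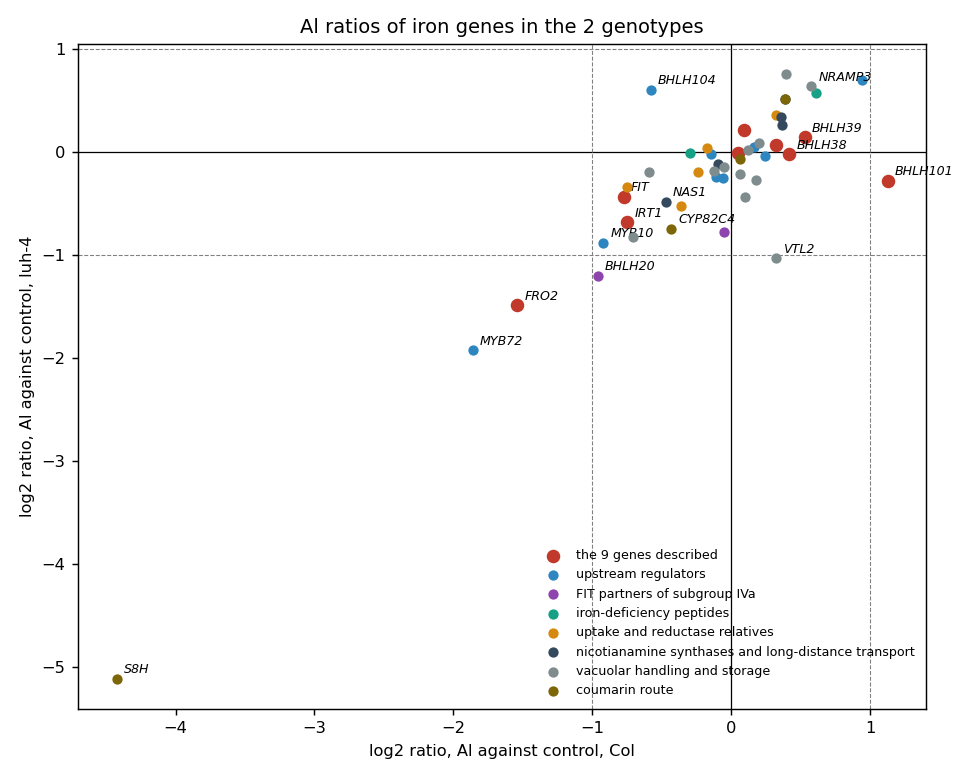
Log2 ratios of RPKM plus 0.1, Al against control, in Col (horizontal) and luh-4 (vertical) for the 48 iron genes measured in both comparisons, coloured by role, with dashed lines at a 2-fold difference. FRO2 and MYB72 lie below -1 on both axes and S8H beyond -4 on both, while most other genes lie within 1 of 0.

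Genes with profiles most like those of FRO2 and IRT1 were sought over the 4 libraries among 5937 loci with a symbol and at least 5 RPKM in some library, by the Euclidean distance between centred log2 profiles. Nearest to FRO2 were the bZIP factor gene bZIP58 (distance 0.19), the peptide gene PEP7 (0.299), the aquaporin gene PIP2;4 (0.336), the chloride channel family gene CLC-B (0.36) and the tonoplast aquaporin gene TIP2;2 (0.369). IRT1 stood at 0.805 from FRO2, and 64 of the 5937 were closer. Nearest to IRT1 were the peptide gene RALFL27 (0.019), the exocyst gene EXO70H1 (0.08), the abscisate receptor gene PYR1 (0.093), MYB19 (0.094) and the galactinol synthase gene GolS1 (0.095). FIT stood at 0.201 from IRT1, with 23 closer. With 4 libraries many profiles are alike, and the distances are a description only.

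Reads of related genes can be confused where their sequences are alike. The coding sequences of BHLH38 and BHLH39 were 83.1% identical, with a longest identical run of 34 bases, and other pairs of the Ib genes 53.6% to 70.5%. No pair of them shared a stretch of 50 bases. NAS1 and NAS2 were 82.8% identical, with a longest run of 49 bases, and IRT1 and IRT2 72.8%, with 22. The read length is not given in the sources used here, so it cannot be said how far the counting could separate BHLH38 from BHLH39, whose ratio had an interval that included 1 in every library except luh-4 Al, where BHLH39 was 1.15 times BHLH38 (1.0 to 1.32, with a lower bound just above 1).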

How the data were processed

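Polyadenylated RNA of 4 root samples was sequenced on an Illumina instrument, per the labels' protocols. Build TAIR10 is taken from the submitters' processing notes; which programs aligned and counted the reads is not given in the sources used here. The authors deposited, per the file headers, a read count per transcript, a coding length, the percent of it covered by reads, and RPKM, which here equalled the count scaled by length and by the library total in the header. Counts and RPKM were summed over the transcripts of each locus, and unlisted loci were taken as 0 reads. The members, gene lists, tests and named genes were chosen with earlier results of these data known. Named were the 9 members, 15 other iron genes whatever their values, and list genes past the size rule; other names are marked in the text.

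Log2 ratios used RPKM plus a pseudocount of 0.1, for loci with at least 1 RPKM in a library compared. Their intervals were exact conditional Clopper-Pearson intervals on reads; levels had exact Poisson intervals, and differences between responses a normal approximation on log reads with 0.5 added. The intervals cover counting error only, and because PCR reads are not independent molecules they may be too narrow even for that. The additive fit used loci with at least 20 reads and TMM factors (edgeR 4.0.16, R 4.3.3), with DESeq2 1.42.0 as an alternative. On simulated reads the size rule recovered 99% of 2.5-fold changes set in a sample of loci for the Al response in Col. The additive fit recovered 91%. The genes measured or tested numbered 17012 and 18125, most of them without a set change. Changes were set only in loci above a minimum of expected reads, so the recovery does not cover genes with few reads. Simulated reads for the size rule held counting error alone, not variation between plants. Promoters and coding sequences came from the RefSeq TAIR10.1 genome, located by its own annotation. Of the 11 listed member transcripts 10 had the coding length of that annotation. The exception was BHLH101, with 723 bases in the deposited data and 783 in the annotation. Strand was not stated, so antisense reads cannot be separated. Python 3.11.15 with scipy 1.17.1, pandas 2.3.3 and biopython 1.88 was used.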

Additional observations from a re-analysis of the deposited data

Results flagged for a closer look

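BHLH38, BHLH101 and BTS had Al ratios of opposite sign in the genotypes. BHLH38 had 0.42 in Col and -0.02 in luh-4, a difference of -0.44 (-0.71 to -0.17), and its luh-4 value was 0.00 when centred on the median of all loci. BHLH101 had 1.13 and -0.28, a difference of -1.40 (-3.34 to 0.35), on 4 to 20 reads. BTS had 0.05 and -0.01, a difference of -0.056 (-0.16 to 0.05), and its luh-4 value was 0.01 under TMM scaling. With 1 library per group the differences were not tested.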

How the results depend on the processing

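No paired analysis was possible because each group is 1 library and the labels carry no replicate numbers, and leaving out a library leaves the additive fit without residual degrees of freedom. Of 43 recomputed counts of members called, 39 stayed within 1.5 times the value reported. Without the counting interval 2 members passed in Col, BHLH101 joining FRO2. With an RPKM minimum of 5, 0 passed in luh-4 control against Col control, since BHLH101 and BHLH100 were then not measured. With the wild-type control as the reference for luh-4 Al, an alternative chosen after seeing the data, 4 passed. DESeq2 called 0 members in the genotype effect. FRO2 stayed past the size rule under every alternative run for the Al response, from -1.56 to -1.54 in Col and from -1.92 to -1.47 in luh-4. IRT1 lay between -0.77 and -0.75 and FIT between -0.80 and -0.77 in Col. Of 373 recomputed values of single members 364 were counted as unchanged, and 0 changed sign after a call. Unchanged means that the call was the same. For a log2 ratio that was not called, it also means staying within the counting interval. Over all loci, a pseudocount of 1 lowered the number of loci past the size rule, for higher and lower, from 265 and 146 to 140 and 56 without Al, from 208 and 161 to 100 and 67 with Al, from 235 and 394 to 128 and 236 for the difference between responses, and from 531 to 316 for lower in luh-4 with Al. A minimum of 5 RPKM, which tests fewer loci, gave 274 and 312 against 444 and 496 for Al in Col, 203 and 274 against 345 and 531 in luh-4, 94 and 45 without Al, 90 and 41 with Al, and 105 and 177 for the difference. Without the counting interval 220 were lower without Al and 276 with Al. The additive fit called 213 loci for genotype, 442 without scaling factors, 548 with all loci with a read and 31 by DESeq2, and 2180 for Al, 859 by DESeq2. The causes were not tested. Depth limits BHLH100 and BHLH101, whose 4 libraries hold 163 and 50 reads in all.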
